A study of Mus musculus with 20 samples.

Results

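The genes described here encode the enzymes and regulators that make cholesterol and fatty acids. The set holds 34 mouse genes chosen by name, for their place in these pathways and not for any measured value. Of these, 33 were rows of the expression table and passed the filter on low values, among 14385 genes that passed it, and Acacb was not analysed here. The tissue was subcutaneous tumors grown in C57/BL6 mice for 4 weeks from HEPA1-6 cells, a mouse hepatoma line. Every tumor had received an antibody, so the comparison group was not untreated: 5 samples had control antibody, 5 had control antibody and GSK343, 5 had an antibody against CXCL10 and 5 had that antibody and GSK343. GSK343 inhibits EZH2, the histone methyltransferase of a Polycomb repressive complex, and CXCL10 is a chemokine that attracts T cells. The labels give neither the dose of GSK343, nor the age or sex of the mice, nor whether each tumor came from a separate animal, so a p-value here covers no more than the variation from library to library, part of which may be technical. The series' design text speaks of 3 biological replicates where the labels number 5 samples per group, so it is not known how many libraries of a group are independent. A column was matched to 19 of the 20 samples, and control antibody replicate 4 was not analysed here.

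Cholesterol is built from acetyl-CoA through mevalonate, farnesyl diphosphate, squalene and lanosterol, and fatty acids are built from the same acetyl-CoA and then desaturated and elongated. Transcription of most of these enzymes is controlled by the sterol regulatory element-binding proteins, SREBP-1 (gene Srebf1), which is weighted towards fatty acid genes, and SREBP-2 (gene Srebf2), which is weighted towards sterol genes. The precursors stay in the endoplasmic reticulum with the escort protein Scap while sterols are plentiful, held there by Insig1, and are cut and released to the nucleus when sterols run low. Hepatocytes are a main site of both pathways, and hepatoma cells keep much of this machinery.

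The values were read as FPKM, which scale the fragments of a gene to its transcript length and to the size of the library. The depth of each library is unknown, since no counts were used here. The FPKM values of a library summed to between 533606 and 629679. Replicates of a group correlated with r between 0.942 and 0.977 on the log2(FPKM + 1) scale. The hepatocyte and hepatoma markers were abundant, with Alb at a mean of 3003 FPKM, Afp at 2273 FPKM and Trf at 2093 FPKM. Of 12 adipocyte markers, 8 had no row in the table, Adipoq and Plin1 among them, and the other 4 (Cfd, Fabp4, Pparg, Lipe) are not specific to fat. Skeletal muscle markers varied most, with a mean log2(FPKM + 1) of 1.06 to 2.46 under control antibody and of 1.77 to 6.70 with GSK343 added, and the 3 highest libraries were control antibody plus GSK343 replicates 3, 4 and 5. In these bulk samples, fewer cells of a type and less RNA per cell cannot be told apart. The sample numbers in the labels run from 1 to 10 over the control antibody groups and again over the anti-CXCL10 groups, so the antibody and whatever that numbering stands for cannot be told apart.

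The sequences upstream of several of these genes show what kind of promoter the values below come from. RefSeq promoters (GRCm38.p6) were matched for 27 of the 34 genes, in 34 windows of 250 bases before a transcription start. Fdps, Fdft1, Sqle, Fads1, Scd1, Scd2 and Stard4 had no entry. Of the 4 genes with the largest difference in any comparison of a pair of groups (Acat2, Idi1, Elovl6 and Dhcr7), the window of Idi1 lay wholly in annotated exons and is not shown. Hmgcs1 and Srebf2 were added, after the search, because each holds a match to a sterol regulatory element. Only the stretch outside annotated exons is printed, 5′ to 3′ on the gene's strand, with matches to a sterol regulatory element or an NF-Y box in capitals.
Acat2 (chr17:12960748-12960975, minus strand): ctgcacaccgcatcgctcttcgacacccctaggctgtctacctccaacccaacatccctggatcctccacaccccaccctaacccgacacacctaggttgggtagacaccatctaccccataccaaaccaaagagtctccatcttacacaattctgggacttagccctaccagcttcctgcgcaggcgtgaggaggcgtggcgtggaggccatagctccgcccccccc
Elovl6 (chr3:129532136-129532256, plus strand): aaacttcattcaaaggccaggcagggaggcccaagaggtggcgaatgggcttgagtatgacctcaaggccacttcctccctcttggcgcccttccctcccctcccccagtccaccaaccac
Dhcr7 (chr7:143822917-143823144, plus strand): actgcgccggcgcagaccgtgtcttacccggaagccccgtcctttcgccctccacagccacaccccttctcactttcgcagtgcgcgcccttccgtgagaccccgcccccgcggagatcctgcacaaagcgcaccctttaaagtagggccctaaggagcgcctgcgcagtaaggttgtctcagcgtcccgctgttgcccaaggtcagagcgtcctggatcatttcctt
Hmgcs1 (chr13:119690101-119690350, plus strand): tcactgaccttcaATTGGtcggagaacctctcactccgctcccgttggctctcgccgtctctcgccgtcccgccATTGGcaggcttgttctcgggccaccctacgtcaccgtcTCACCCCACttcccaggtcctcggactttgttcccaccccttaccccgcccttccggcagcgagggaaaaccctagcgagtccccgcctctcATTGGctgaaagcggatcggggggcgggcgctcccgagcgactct
Srebf2 (chr15:82147019-82147180, plus strand): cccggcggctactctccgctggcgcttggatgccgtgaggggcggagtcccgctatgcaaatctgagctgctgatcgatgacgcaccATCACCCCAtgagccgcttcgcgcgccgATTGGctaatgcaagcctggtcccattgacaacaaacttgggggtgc

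In the Hmgcs1 window, TCACCCCAC is the sterol regulatory element match and each of the 3 ATTGG runs is an NF-Y box (CCAAT) read on the other strand. In the Srebf2 window, ATCACCCCA is a match to a second form of the element. The printed stretches of Acat2, Elovl6 and Dhcr7 held neither. Letters were searched on both strands in the whole of all 34 windows and in all 32851 mouse promoters of the table, for 6 motifs chosen from textbook forms with these results in view. The sterol regulatory element TCACNCCAC was in 1 of 34 windows (2.94%, against 1.05% of all promoters), the form ATCACNCCA in 1 (2.94% against 0.712%) and the form TCACNCGAG in 2 (5.88% against 0.283%), those of Acss2 and Srebf1. The E-box CACGTG, which SREBP-1 and other factors bind, was in 6 windows (17.6% against 6.02%). CCAAT, the box of the factor NF-Y, was in 22 windows (64.7% against 33.8%), and the GC box CCGCCC of Sp1 was in 23 (67.6% against 32.7%). The forms TCACNCCAC and ATCACNCCA can overlap by 8 bases. A match describes the letters only and is not a measured site.

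Levels spanned the range from abundant to scarce (the plot of levels by library). Scd2, a stearoyl-CoA desaturase, was the highest, followed by Fdps, which makes farnesyl diphosphate, and Sqle, the squalene epoxidase. Scd2 averaged 179.9 FPKM over the 19 libraries, above 96.7% of the genes tested. Its values were 156, 173, 188 and 231 FPKM under control antibody, 149.7, 181, 195, 196 and 187 FPKM with GSK343 added, 185, 174, 172, 146 and 144 FPKM under anti-CXCL10, and 181, 211, 192, 173 and 182 FPKM under anti-CXCL10 with GSK343. The 4 groups overlapped, and the highest library of all was control antibody replicate 5. Scd1, the desaturase of liver, averaged 32.7 FPKM, so Scd2 was the more abundant of the pair in every library.

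**Figure D1:**
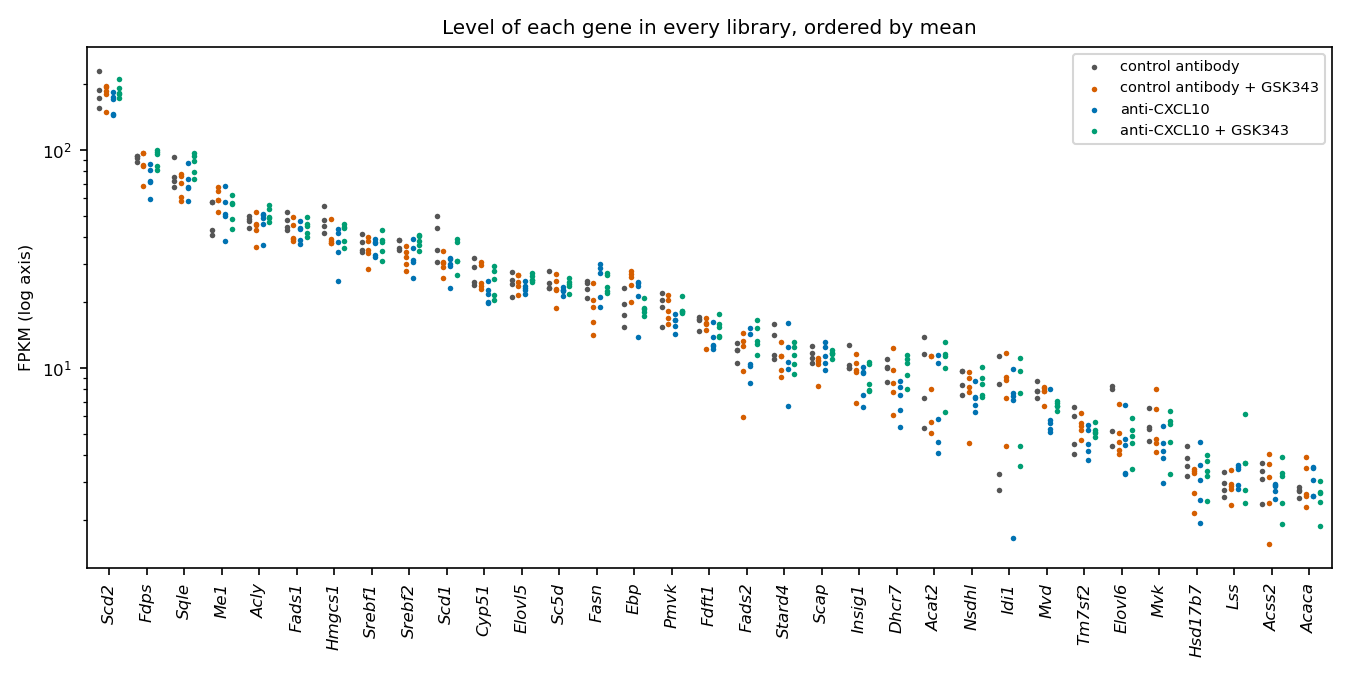
FPKM (log axis) of 33 sterol and fatty acid synthesis genes in every library; each point is a library, coloured by group, and genes are ordered by their mean over 19 libraries. Scd2 lies highest at a mean of 179.9 FPKM and Acaca lowest at 2.82 FPKM; Idi1 and Acat2 have the widest columns of points.

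The scarcest were Acaca at a mean of 2.82 FPKM, Acss2 at 2.94 FPKM and Lss at 3.199 FPKM. Acaca is the acetyl-CoA carboxylase that commits acetyl-CoA to fatty acids, Acss2 makes acetyl-CoA from acetate, and Lss closes the ring of lanosterol. Acaca ranged from 1.87 to 3.92 FPKM and Acss2 from 1.55 to 4.04 FPKM over the 19 libraries. Lss ranged from 2.35 to 6.13 FPKM, and its highest value, in anti-CXCL10 plus GSK343 replicate 3, stood well above the next, 3.67 FPKM in replicate 2 of that group. All 33 genes were read above 1 FPKM in every library.

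Consecutive enzymes of one pathway sat at unlike levels. In the mevalonate branch, Mvk and Pmvk, which phosphorylate mevalonate in turn, averaged 5.06 and 18.1 FPKM, Mvd, the decarboxylase that follows, 7.03 FPKM, Idi1, the isomerase, 7.22 FPKM and Fdps 85.8 FPKM. On the way from squalene, Fdft1, the squalene synthase, averaged 15.1 FPKM, Sqle 75.7 FPKM and Lss 3.199 FPKM. The Fdps level may include other loci: 64.1% of the 50-base stretches of its transcripts also occur in transcripts of other genes, most of them in Gm43738. The same share was 49.1% for Acaca (all with Gm5182), 40.7% for Acat2 (with Acat3, listed at 0.502 to 3.54 FPKM), 24.6% for Me1, 20.0% for Idi1 (with Gm13502, listed at 1.18 to 6.56 FPKM), 19.5% for Tm7sf2 (with its overlapping neighbour Vps51) and 10.9% for Fdft1. It was under 5% for the other 26 genes and 0 for 19 of them.

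Idi1 and Acat2 were the least steady of the set between replicates. Idi1 was 8.43, 11.4, 2.74 and 3.25 FPKM in the control antibody libraries and ranged from 1.66 to 9.84 FPKM under anti-CXCL10. Its standard deviation within groups was 0.69 on the log2 scale, larger than that of 96.1% of the genes tested. Acat2, the cytosolic thiolase that joins acetyl-CoA units, had a standard deviation of 0.51, larger than that of 91.9% of genes. Elovl5, an elongase of polyunsaturated fatty acids, was the steadiest, between 21.1 and 27.6 FPKM with a standard deviation larger than that of only 4.84% of genes.

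No member of either pathway was called for GSK343 under control antibody. Of 33 genes, 0 passed an adjusted p under 0.05 (limma, Benjamini-Hochberg over 14385 genes), where 5.47% of all genes tested did, 4.36% higher and 1.11% lower. At an unadjusted p under 0.05 there were 3 of 33 (9.09%) against 18.9% of all genes, 1 higher (10.7% of all genes) and 2 lower (8.2%). No gene of the set had groups that did not overlap, where 4.05% of all genes lay apart upward and 3.54% downward. The differences were small and mostly downward, 26 below 0 (56.6% of all genes) and 7 above (43.4%), with a median of -0.10 on the log2(FPKM + 1) scale against -0.03 over all genes. For 32 of the 33 the 95% interval of the difference lay within 1 log2 unit either way, Idi1 being the exception (-0.46 to 1.34). On this scale 1 unit is more than a 2-fold change in FPKM, most of all for low genes. An interval within 1 unit therefore need not exclude a 2-fold change. For 20 of the genes the interval lay within 0.5.

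**Figure D2:**
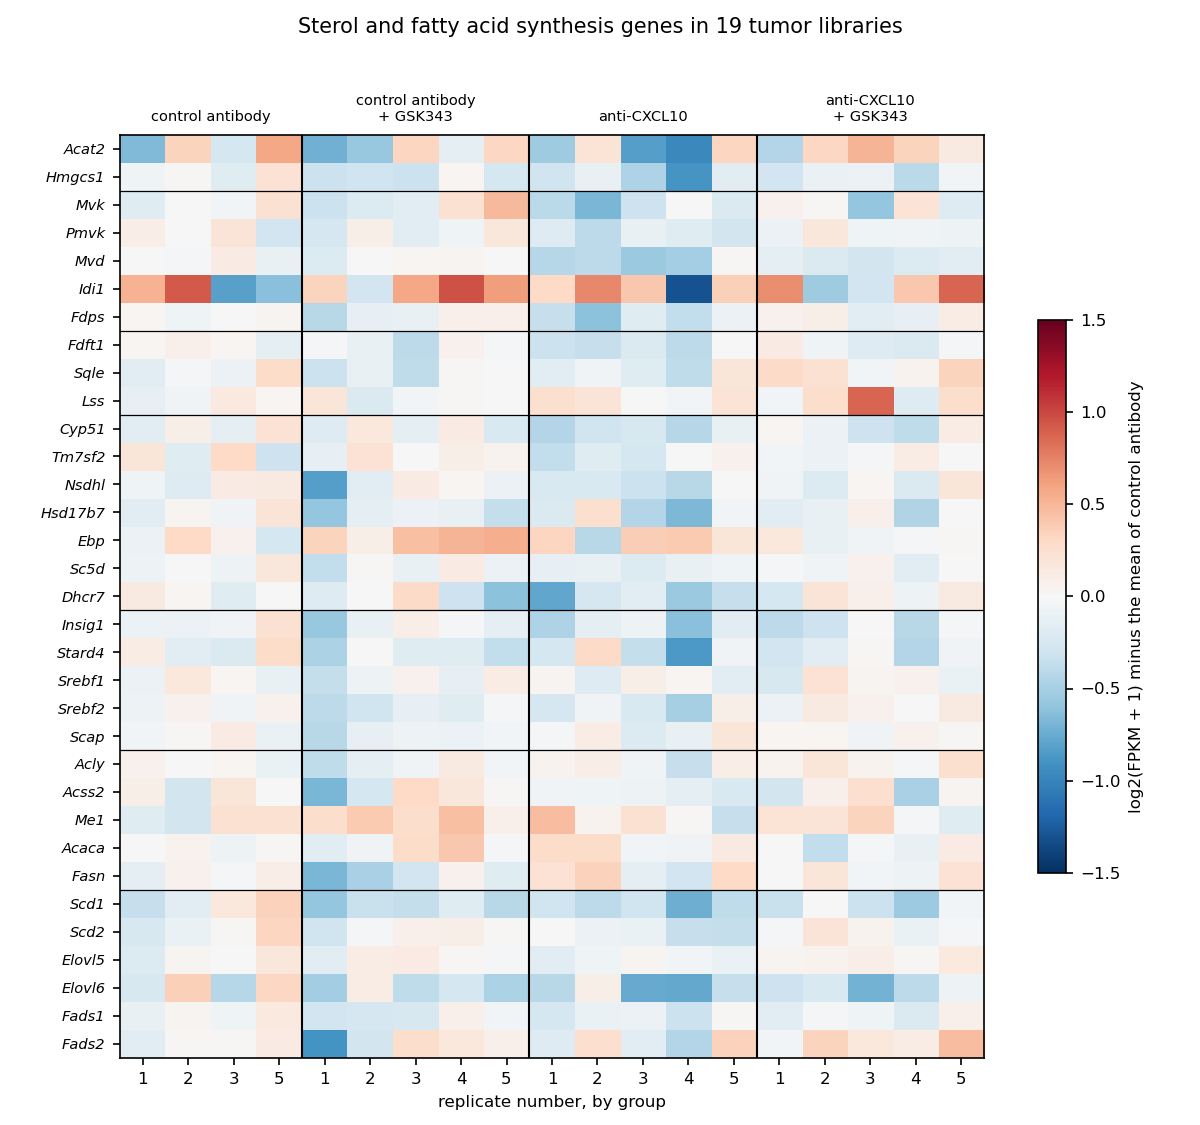
Log2(FPKM + 1) of each gene in each library minus the mean of the control antibody libraries, with genes in rows by role (separated by lines) and libraries in columns by group. No group forms a block of a single colour; control antibody plus GSK343 replicate 1 and anti-CXCL10 replicate 4 are low (blue) over many rows.

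The 3 genes with the smallest p in that comparison, named after their values were seen, were Scd1, Ebp and Fasn. Scd1, which places the double bond of oleate, was 30.7, 34.9, 44.0 and 49.96 FPKM under control antibody and 25.8, 30.8, 30.4, 34.5 and 29.1 FPKM with GSK343. The ranges overlapped in a narrow span at the bottom of the first group. The difference was -0.37 ± 0.14 (SE; adjusted p = 0.143, limma). Ebp, the sterol isomerase, was 17.5, 23.3, 19.6 and 15.4 FPKM under control antibody and 23.9, 20.1, 26.1, 27.04 and 27.9 FPKM with GSK343. It went the other way, by 0.39 ± 0.15 (adjusted p = 0.152, limma), with 1 control library, replicate 2, inside the treated span. Fasn, the fatty acid synthase, was 20.9, 24.5, 22.9 and 25.2 FPKM against 14.1, 16.3, 18.97, 24.4 and 20.4 FPKM, a difference of -0.32 ± 0.15 (adjusted p = 0.245, limma).

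None of the regulators was called under GSK343, and each of their differences lay below 0. Srebf2 was 34.8, 38.6, 35.5 and 38.7 FPKM under control antibody and 27.8, 29.9, 33.9, 32.3 and 36.2 FPKM with GSK343, a difference of -0.20 ± 0.10 (adjusted p = 0.297, limma). Of the GSK343 libraries only the last lay within the control range, and the others lay below it. Srebf1 was 34.7, 41.3, 37.7 and 33.9 FPKM against 28.5, 34.8, 38.4, 33.7 and 39.8 FPKM, with a difference of -0.08 ± 0.11. These values sum all transcripts of Srebf1 and cannot separate its isoforms. Scap was 11.1, 11.7, 12.6 and 10.6 FPKM against 8.30, 10.4, 10.8, 10.8 and 11.1 FPKM, a difference of -0.15 ± 0.09. Insig1, itself a target of SREBP-2, ranged from 9.996 to 12.7 FPKM under control antibody and from 6.87 to 11.5 FPKM with GSK343, a difference of -0.15 ± 0.14. All of these intervals include 0, and each range overlaps its control range.

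Replicate 1 of the control antibody plus GSK343 group weighed on this comparison. It was the lowest of all 19 libraries for 8 of the 33 genes (24.2%, against 16.1% of all genes tested). Without it the median difference of the set moved from -0.10 to -0.02, and still none of the 33 was called. Without the 3 libraries highest in muscle markers, which leaves only replicates 1 and 2 of this group, it moved to -0.22. In that fit 8 genes had an unadjusted p under 0.05 (13.9% of all genes), with none called. With the muscle score as a covariate the median was -0.12, and 1 gene of the set had an unadjusted p under 0.05, against 11.3% of all genes. Without anti-CXCL10 replicate 2, which enters through the shared estimate of spread, Ebp was called (0.39, adjusted p = 0.0463, limma).

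Beside these small differences, markers of several cell types differed in the same comparison. With GSK343 under control antibody, 9 of 10 macrophage markers and 10 of 13 T cell markers were called higher, against 4.36% of all genes. Of 16 hepatocyte and hepatoma markers, 3 were called lower, against 1.11% of all genes. The mean log2(FPKM + 1) of the macrophage list was 4.61 to 5.60 under control antibody and 5.83 to 6.28 with GSK343, and that of the hepatocyte list 5.44 to 6.40 and 4.96 to 5.54. The part of these cell types in the values of the synthesis genes was not tested.

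Under anti-CXCL10, the same addition of GSK343 went with small upward differences. None of the 33 genes was called, and 0.0% of all genes were, the lowest adjusted p over all genes being 0.531 (limma). At an unadjusted p under 0.05 there were 4 of the 33 (12.1%), all higher, against 2.91% of all genes, 1.67% higher and 1.24% lower. Of the 33 differences, 30 lay above 0 (53.2% of all genes) and 3 below (46.8%), with a median of 0.14 against 0.01 over all genes. The 4 genes were Fdps (0.31 ± 0.10), Dhcr7, the last reductase of cholesterol synthesis (0.43 ± 0.15), Sqle (0.29 ± 0.12) and Srebf2 (0.24 ± 0.10), with an adjusted p of 0.9997 for each (limma). The interval lay within 1 log2 unit for 32 of 33 genes, the exception being Acat2.

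Sqle was among the larger of these differences and is given after its values were seen. It was 67.8, 73.5, 67.2, 58.4 and 86.8 FPKM under anti-CXCL10 and 93.8, 89.4, 74.0, 79.2 and 96.9 FPKM with GSK343 added. The groups overlapped through replicate 5 of the first. Pmvk was the only gene of the set whose groups did not overlap, at 16.5, 14.3, 17.6, 16.7 and 15.6 FPKM against 17.8, 21.5, 18.2, 18.3 and 17.97 FPKM, which was noticed after the values were seen. The upper value of the first group and the lowest of the second were 17.6 and 17.8 FPKM, and 0.271% of all genes tested had groups apart in that direction. The Pmvk difference was 0.20 ± 0.10 (adjusted p = 0.9997, limma).

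**Figure D3:**
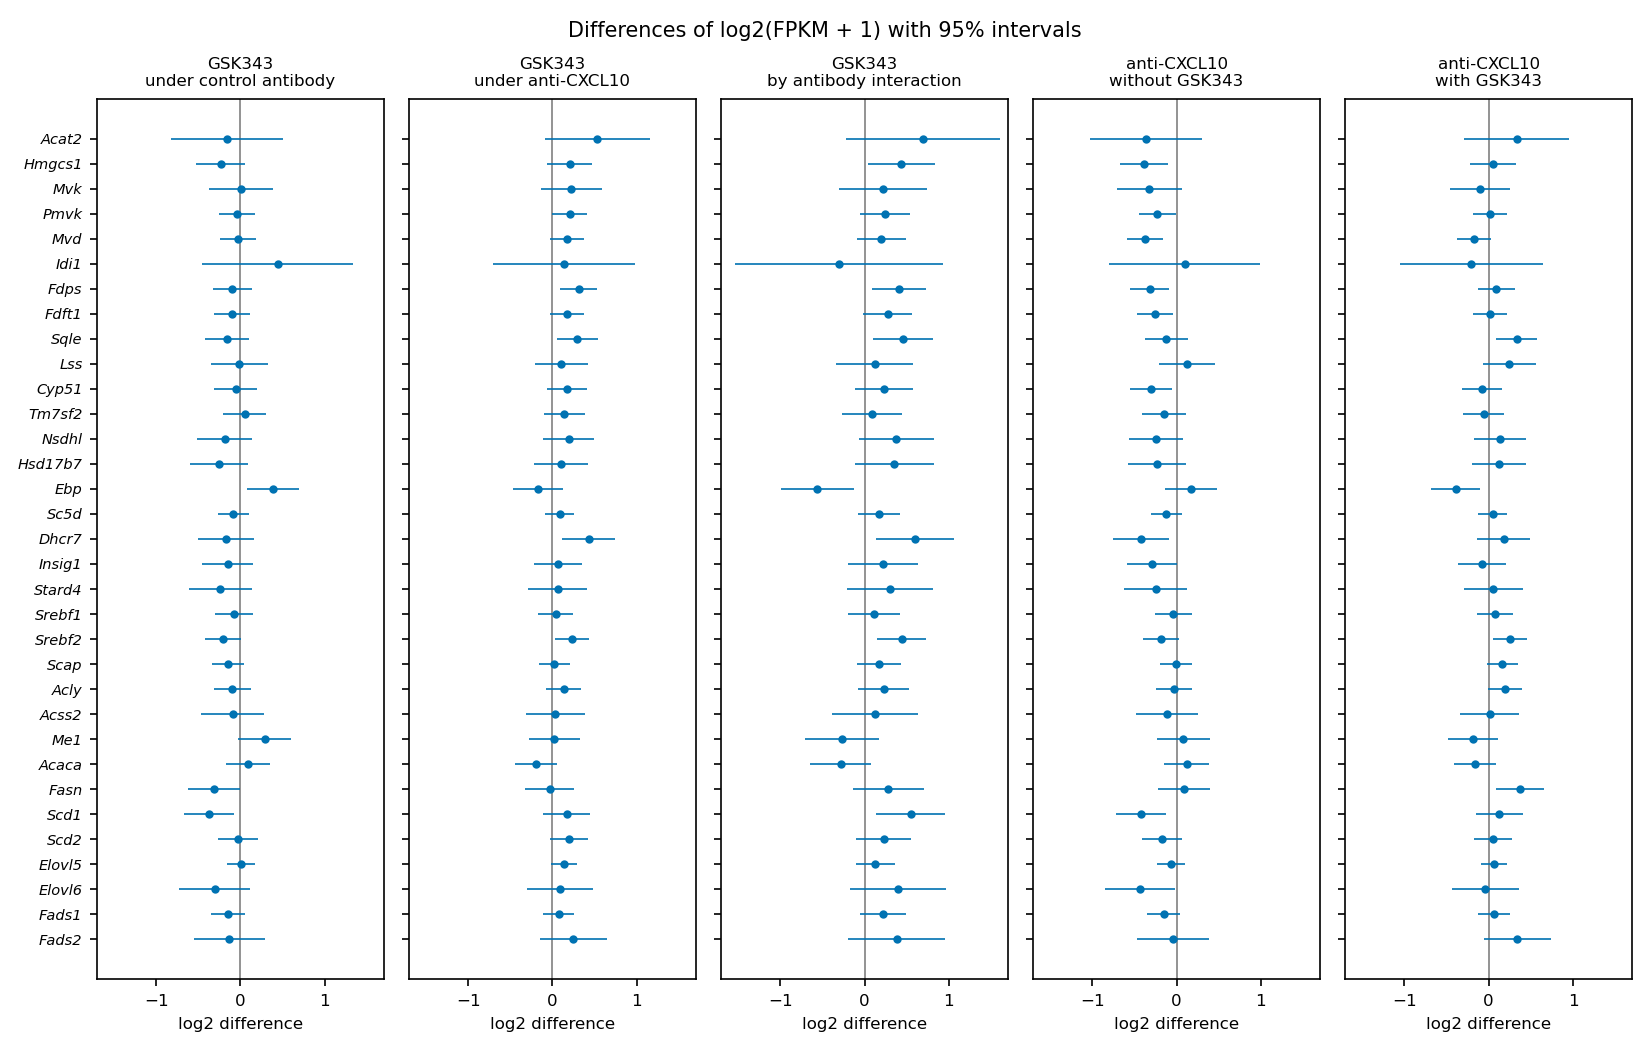
Difference of log2(FPKM + 1) with its 95% interval (limma) for 33 genes in 5 comparisons, genes in rows by role. Points lean below 0 for GSK343 under control antibody (26 of 33) and for anti-CXCL10 without GSK343 (27 of 33), and above 0 for GSK343 under anti-CXCL10 (30 of 33); comparisons that share a group are not independent.

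The difference between these responses, tested as an interaction, gave no call in the set. The interaction is the GSK343 difference under anti-CXCL10 minus that under control antibody. It was called for 0 of the 33 genes and for 0.0626% of all genes, 9 genes that were all lower. At an unadjusted p under 0.05 there were 7 of the 33 (21.2%), against 12.9% of all genes, with 6 higher (18.2% against 5.11%) and 1 lower (3.03% against 7.83%). The estimate was above 0 for 29 of the 33 (57.3% of all genes) and below for 4 (42.7%). Srebf2 had the smallest p, with an interaction of 0.44 ± 0.14 (adjusted p = 0.187, limma). The others were Scd1 at 0.55, Dhcr7 at 0.60, Sqle at 0.45, Hmgcs1 at 0.44 and Fdps at 0.41, and Ebp at -0.56 in the opposite direction. Intervals were wide here: they lay within 1 log2 unit for 30 of 33 genes but within 0.5 for only 7. Without the 3 muscle-high libraries 13 genes had an unadjusted p under 0.05 (10.2% of all genes), and none was called. With the muscle score as a covariate 3 genes did (7.4% of all genes), and with the adipocyte score 4 (12.5%), again with none called.

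Anti-CXCL10 alone, compared with control antibody, went with small downward differences. None of the 33 genes was called and 0.0139% of all genes were (2 genes). At an unadjusted p under 0.05 there were 9 of the 33 (27.3%), all of them lower, against 6.81% of all genes, 4.01% lower and 2.79% higher. Of the differences, 27 lay below 0 (53.1% of all genes) and 6 above (46.9%), with a median of -0.18 against -0.01 over all genes. This comparison uses the same anti-CXCL10 libraries as the GSK343 comparison under that antibody, in which they are the baseline, so the downward lean here and the upward lean there rest in part on the same 5 libraries.

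The 9 genes lay along both pathways. Hmgcs1, the synthase that makes HMG-CoA, was 45.0, 47.8, 41.5 and 55.1 FPKM under control antibody and 38.0, 43.6, 33.9, 25.0 and 41.8 FPKM under anti-CXCL10. The ranges overlapped only between 41.5 and 43.6 FPKM, and the difference was -0.39 ± 0.14 (adjusted p = 0.684, limma). Mvd was 7.87, 7.82, 8.67 and 7.26 FPKM against 5.61, 5.76, 5.06, 5.26 and 7.97 FPKM. Replicate 5 of the second group sat among the controls and the other 4 below them, and the difference was -0.37 ± 0.10. Fdps was 93.7, 88.2, 91.9 and 94.4 FPKM against 71.9, 59.5, 81.1, 71.2 and 86.6 FPKM, and was the only gene of the set whose groups did not overlap (1.61% of all genes had groups apart in that direction). Its difference was -0.32 ± 0.11 (adjusted p = 0.684, limma), subject to the shared sequence given above.

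The other 6 were Pmvk at -0.23, Fdft1 at -0.26, Cyp51, the lanosterol demethylase, at -0.30, Dhcr7 at -0.42, Scd1 at -0.42 and Elovl6, which lengthens palmitate, at -0.44. By role, all 6 desaturases and elongases and all 5 regulators and transfer genes lay below 0, as did 6 of 7 lanosterol-to-cholesterol genes and 4 of 5 mevalonate genes. The genes that supply acetyl-CoA and build the chain did not lean this way, with 3 of 5 above 0 and a median of 0.08. Srebf2 was -0.19 ± 0.10 and Srebf1 -0.04 ± 0.11. None of these differences passed the adjusted threshold.

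Replicate 4 of the anti-CXCL10 group was low across the set. It was the lowest of the 19 libraries for 11 of the 33 genes (33.3%), against 4.75% of all genes tested, and it had the highest FPKM sum, 629679. Without it the median of the set went from -0.18 to -0.12, 8 genes in place of 9 had an unadjusted p under 0.05 while the share of all genes rose from 6.81% to 10.4%, and the signs of 3 genes turned. Without it the median for GSK343 under anti-CXCL10 also fell, from 0.14 to 0.09. With the mean of the 4 adipocyte markers as a covariate, 4 genes in place of 9 had an unadjusted p under 0.05 (5.15% of all genes) and the median was -0.14. That mean was 3.15 to 4.51 under control antibody and 2.76 to 3.17 under anti-CXCL10. For 11 keratinocyte and sebaceous gland markers the mean was 1.42 to 5.13 and 1.34 to 4.42, with a median difference of -0.925. No marker of these 2 lists was called, and the part of keratinocyte and sebaceous gland cells was not tested.

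With GSK343 in both groups, many genes were called between anti-CXCL10 and control antibody, and none of this set was. Of all genes tested 10.1% were called, 3.48% higher and 6.64% lower, and 0 of the 33 were. At an unadjusted p under 0.05 there were 4 (12.1%) against 25.7% of all genes, 3 higher (12.0% of all genes) and 1 lower (13.7%). The differences lay above 0 for 23 (55.1% of all genes) and below for 10 (44.9%), and no gene of the set had groups apart (4.12% of all genes upward, 4.65% downward). Sqle was 0.33 ± 0.12 (adjusted p = 0.0776), Fasn 0.37 ± 0.14 (0.0929), Srebf2 0.25 ± 0.10 (0.107) and Ebp -0.39 ± 0.14 (0.0846), each adjusted p from limma. The 95% intervals of these 4 differences, not adjusted over genes, exclude 0. For Fasn, the values were 14.1, 16.3, 18.97, 24.4 and 20.4 FPKM under control antibody with GSK343 and 23.4, 26.6, 22.6, 22.0 and 27.3 FPKM under anti-CXCL10 with GSK343. Replicate 4 of the first group lay within the second. Leaving that library out gave a difference of 0.47 and called Fasn (adjusted p = 0.0402, limma). In the same comparison 6 of 16 hepatocyte and hepatoma markers were called higher, and 8 of 10 macrophage, 9 of 13 T cell, 3 of 8 fibroblast and 1 of 16 skeletal muscle markers were called lower, and their part in these values was not tested.

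Ebp, Sqle, Fasn and Fads2 were called in this comparison under some other settings. Fitted on the compared groups alone, or without anti-CXCL10 replicate 2, Ebp was called (adjusted p = 0.0382 and 0.0238, limma). Sqle was called when the replicate number was a block (adjusted p = 0.0323, limma). Without the 3 libraries highest in muscle markers, Fasn (0.65, adjusted p = 0.0411, limma) and Fads2, the delta-6 desaturase of polyunsaturated fatty acids, were called. That fit kept only replicates 1 and 2 of control antibody plus GSK343, the lowest of that group for both genes. Fads2 was 5.935 and 9.65 FPKM in them, against 14.5, 13.4 and 12.5 FPKM in those left out. Fasn was 14.1 and 16.3 FPKM, against 18.97, 24.4 and 20.4 FPKM.

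The members varied together within groups. Over the 19 libraries, taking each value as its deviation from its group mean on the log2 scale, the 528 pairs of members had a median Pearson r of 0.27, and 133 pairs (25.2%) reached 0.5. Over all pairs of the genes tested the median was 0.01, and 7.02% reached 0.5. With the FPKM sum of the library also removed, the medians were 0.18 and 0.01, and 14.6% of the member pairs against 5.21% of all pairs reached 0.5. The closest pairs were Hsd17b7 and Stard4 (0.88), Srebf2 and Fads2 (0.86) and Acly with Fasn (0.86), the last being the enzyme that makes cytosolic acetyl-CoA and the fatty acid synthase. Ebp had a negative r against 24 of the other 32 members, Tm7sf2 against 21, Pmvk against 19 and Me1 against 18, the lowest being -0.74 between Ebp and Stard4. This description was chosen after the values were seen. All points come from the same 19 libraries, so pairs share any property of a library.

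**Figure D4:**
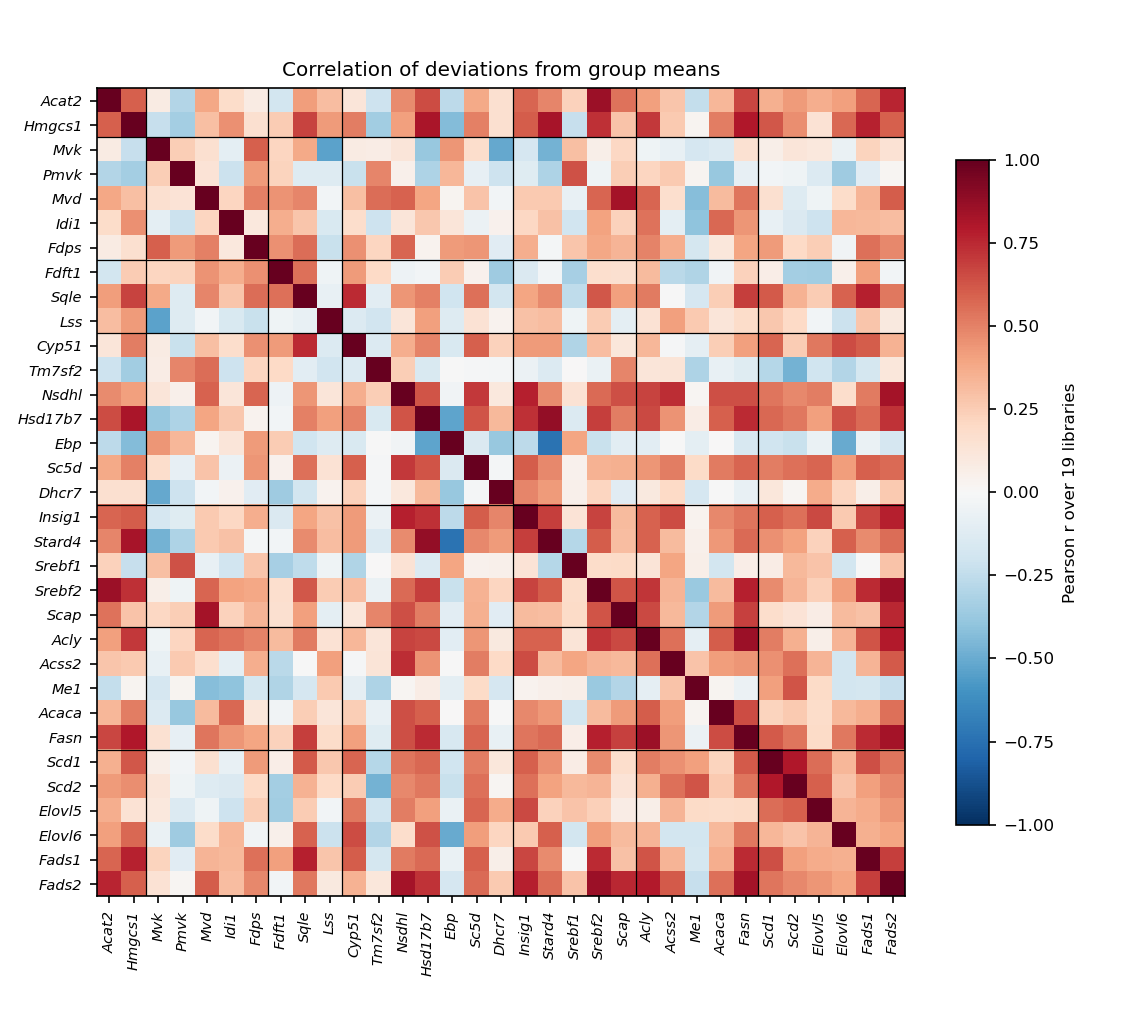
Pearson r between 33 genes over 19 libraries, computed on deviations from group means of log2(FPKM + 1), genes ordered by role (lines). Red blocks join Hmgcs1, Hsd17b7, Stard4, Srebf2, Fasn and Fads2; Ebp, Tm7sf2, Pmvk and Me1 are pale or blue against most of the others.

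Some of the members varied with Srebf2. Of the other 32 genes, 13 had an r of at least 0.5 with Srebf2 (40.6%), where 8.87% of all 14384 other genes did, and the median r was 0.39 against 0.07 over all genes. For Fads2 r was 0.86 (permutation p = 1e-05, the smallest that 100000 permutations within groups can give; Spearman rho 0.92, permutation p = 1e-05). For Acat2 r was 0.86 (permutation p = 2e-05; rho 0.84, permutation p = 7e-05). Next were Fasn (r = 0.78, rho = 0.78), Fads1 (r = 0.74, rho = 0.76), Hmgcs1 (r = 0.73, rho = 0.66) and Acly (r = 0.71, rho = 0.63). Their permutation p-values for r were 0.00174, 0.00124, 0.00461 and 0.00581.

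Fads2 and Acat2 show the pattern library by library. Fads2 was 10.5, 12.1, 12.0 and 12.96 FPKM under control antibody, 5.93, 9.65, 14.5, 13.4 and 12.5 FPKM with GSK343, 10.2, 14.4, 10.4, 8.50 and 15.3 FPKM under anti-CXCL10, and 11.5, 15.3, 13.3, 12.9 and 16.7 FPKM under anti-CXCL10 with GSK343. Srebf2 in those last 10 libraries was 30.7, 35.5, 31.2, 25.9 and 39.2 FPKM, and 34.6, 40.7, 38.4, 36.7 and 40.4 FPKM. Within both anti-CXCL10 groups, the lowest Fads2 value was in the library of lowest Srebf2. Acat2 ranged from 4.09 to 13.8 FPKM, its minimum being in anti-CXCL10 replicate 4, where Srebf2 was also lowest.

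**Figure D5:**
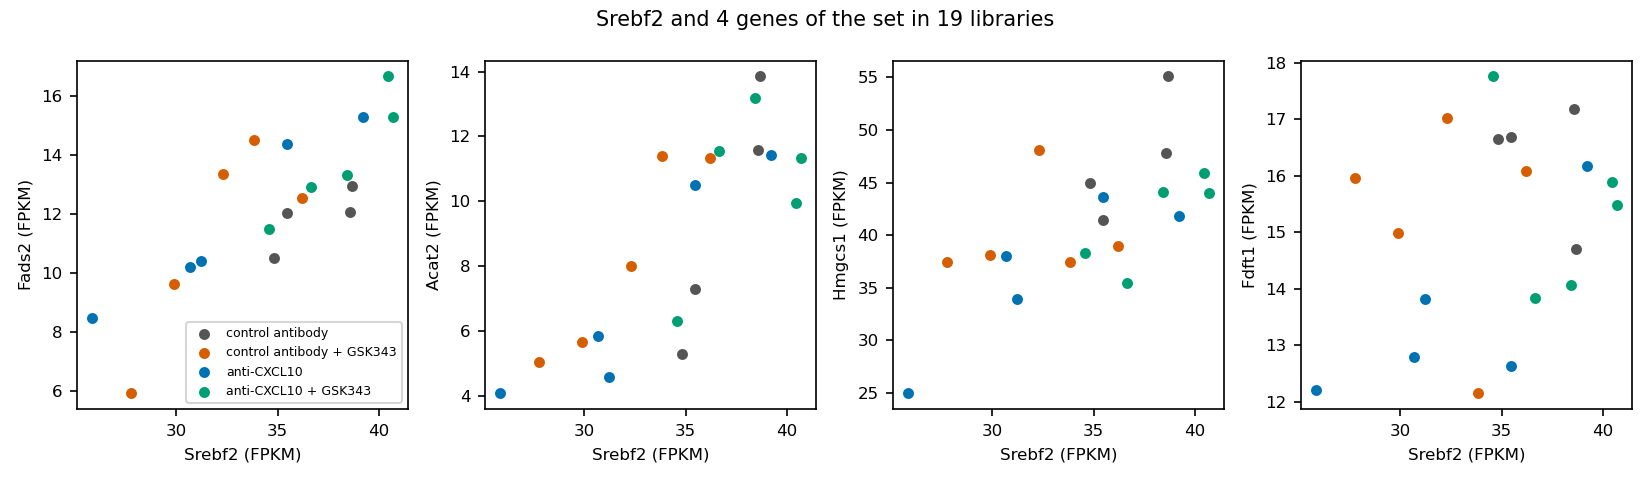
FPKM of Fads2, Acat2, Hmgcs1 and Fdft1 against FPKM of Srebf2 in 19 libraries, coloured by group. Fads2 (r = 0.86 within groups) and Acat2 (0.86) climb with Srebf2, Hmgcs1 (0.73) does so with its lowest point in anti-CXCL10 replicate 4, and Fdft1 (0.17) is scattered.

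These relations were tested over all genes as the slope of each gene on Srebf2 in limma, with groups as terms. No gene of the 14384 passed an adjusted p under 0.05, and the 2 lowest of the set were Acat2 and Fads2 at an adjusted p of 0.0679 each (limma). At an unadjusted p under 0.05 with a positive slope there were 13 of 32 members (40.6%) against 8.75% of all genes. Leaving out the 2 libraries whose Srebf2 lay farthest from its group mean, anti-CXCL10 replicates 4 and 5, r remained 0.86 for Fads2 and 0.85 for Acat2 but fell to 0.53 for Hmgcs1. It also fell for Sqle (0.62 to 0.39), Mvd (0.58 to 0.24) and Stard4 (0.61 to 0.39), and rose for Acss2 (0.34 to 0.54) and Scd2 (0.34 to 0.53). Leaving out the extremes of Srebf2 narrows its range, which can itself lower r. A fall therefore does not show that a relation rests on those libraries.

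Fewer varied with Srebf1, though the difference between the regulators was not tested. Only Pmvk of the other 32 genes had an r of at least 0.5 with Srebf1 (3.12% against 9.16% of all genes), at r = 0.63 (permutation p = 0.00779), rho = 0.65 and r = 0.57 without the 2 farthest libraries. No member passed the adjusted slope test on Srebf1, where 0.368% of all genes had a positive slope that did. Srebf1 and Srebf2 themselves had an r of 0.18. In all, 63 relations of members with these regulators were computed.

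Part of what the members shared was also shared with the FPKM sum of the library. That sum depends on which transcripts dominate the library, and composition itself was not measured. For 14 of the 33 genes (42.4%, against 20.4% of all genes) r with the FPKM sum was -0.5 or lower, and the median was -0.43 against -0.10. Hsd17b7 (-0.87), Hmgcs1 (-0.82) and Stard4 (-0.74) were the most negative, and Srebf2 itself was -0.61. After the FPKM sum was also removed, 10 of 32 members had an r of at least 0.5 with Srebf2, against 3.30% of all genes, and the median was 0.22 against 0.01. Acat2 (0.79) and Fads2 (0.78) were still the highest, and Hmgcs1 was at 0.50. With the FPKM sum in the slope test as well, 0 genes passed the adjusted threshold and 8 members had a positive slope at an unadjusted p under 0.05 (25.0% against 2.70%).

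Some targets of the liver X receptors, which sense oxysterols and drive efflux, were called under GSK343, where no synthesis gene of the set was. The difference between the lists was not tested. Of 7 genes listed as such targets or for cholesterol efflux, 3 were called higher with GSK343 under control antibody, where 4.36% of all genes were. Abcg1, an efflux transporter, went from 4.35 ± 0.71 FPKM (SD, n = 4) to 8.80 ± 1.91 FPKM (SD, n = 5), a difference of 0.86 ± 0.14 (adjusted p = 0.00282, limma). Smpdl3a, a phosphodiesterase, went from 7.31 to 16.7 FPKM (1.09 ± 0.17, adjusted p = 0.00229, limma) and Pltp, the phospholipid transfer protein, from 12.6 to 20.8 FPKM (0.76 ± 0.21, adjusted p = 0.0398, limma). The groups did not overlap for Abcg1 and Smpdl3a, and did for Pltp. All 3 were called lower in anti-CXCL10 with GSK343 against control antibody with GSK343, a comparison that shares the control antibody plus GSK343 libraries.

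Those 3 genes are also expressed by macrophages, whose markers were higher in the same libraries by the values given above, and their part in the difference was not tested. The call of Abcg1 under GSK343 was lost with the muscle score as a covariate (adjusted p = 0.0507), though its difference was 0.87 there and 0.86 without the score. The call of Smpdl3a was lost with the muscle score (0.87, adjusted p = 0.0634) and without the 3 muscle-high libraries (0.107), and that of Pltp in 14 of 31 alternatives, with limma throughout. No direction turned in any of them.

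Of 31 further genes of sterol and lipid synthesis, 2 were called between the antibodies with GSK343 in both groups, where 10.1% of all genes were. Lpin3, a phosphatidate phosphatase, was higher under anti-CXCL10 (1.05 ± 0.25) and Soat1, which esterifies cholesterol, lower (-0.67 ± 0.17), the first called in 29 of 31 alternatives and the second in 27.

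Of 19 genes of fatty acid oxidation, 3 were called for GSK343 under control antibody, where 5.47% of all genes were. Hadh (-0.34 ± 0.08) and Acaa2 (-0.60 ± 0.17), mitochondrial enzymes of beta-oxidation, were lower, and Acaa1a, the peroxisomal thiolase, was higher (0.48 ± 0.13). Each was called in the opposite direction in anti-CXCL10 with GSK343 against control antibody with GSK343, together with Cpt1a, the gatekeeper of mitochondrial import (0.43 ± 0.13), where 10.1% of all genes were called, and that comparison shares the control antibody plus GSK343 libraries. These calls were not steady over the 31 alternatives, though no direction turned. For GSK343 under control antibody Hadh was called in 23 of them, Acaa2 in 16 and Acaa1a in 16, and between the antibodies with GSK343 Hadh in 29, Acaa2 in 23, Acaa1a in 13 and Cpt1a in 12. With the muscle score as a covariate, Acaa2 was -0.33 in the first comparison (adjusted p = 0.479, limma) and 0.31 in the second (adjusted p = 0.321, limma). Under anti-CXCL10, GSK343 gave no call in any of these lists.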

How the data were processed

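The deposited FPKM table of the authors was used as it stood. The submitters' processing notes name Trimmomatic 0.33, TopHat2 2.1.0, HISAT2 2.1.0, HTSeq 0.6.0, StringTie 1.3.3b and GRCm38/mm10, without saying which step used which. The FPKM unit was inferred from the values, since sums weighted by gene length varied by 0.79% (CV) against 4.06% for plain sums. Rows sharing a gene ID (21 rows, 8 IDs) were summed. Genes with at least 1 FPKM in at least 5 libraries were kept (14385 of 14633). limma 3.58.1 (R 4.3.3, statmod 1.5.0) was fitted to log2(FPKM + 1) for 4 groups with trend and robust moderation, and p-values were adjusted by Benjamini-Hochberg over all genes. Fold changes on this scale understate those of low genes. Correlations and permutations used NumPy 2.4.6 in Python 3.11.15. The procedure was tested on simulated data for GSK343 under control antibody, with 200 of 14385 genes changed. It recovered 32.5% of changes of 0.5 log2 units and 85% of changes of 1 log2 unit. Of the genes called, 5.8% and 5% were false. Most changes of 0.5 or smaller would therefore not be called.

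The members and lists were chosen with earlier results of these data known. Genes given in detail were, by rule, any member called, the 3 highest and 3 lowest by mean, and Srebf1, Srebf2, Scap and Insig1. Any other member given in detail was picked after its values were seen, as were the correlation, shared-sequence and motif searches. Alternatives covered pseudocount, filter, scaling, moderation, marker covariates, the replicate block and libraries left out. Adjusting for the FPKM sum was added after seeing the data. For GSK343 under control antibody, the endothelial, fibroblast, keratinocyte and adipocyte marker lists gave 0 calls and 1 of 16 skeletal muscle markers was higher. The result of 1 further lipid gene is not reported here.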

Additional observations from a re-analysis of the deposited data

Results flagged for a closer look

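In 7 of 132 sets of values (a gene within a group), 1 library stood apart from the others by Dixon's criterion, which chance alone meets in about 1 of 20. Hmgcs1 was 48.2 FPKM in control antibody plus GSK343 replicate 4, against 37.4 to 39.0 FPKM in the other 4 libraries. Pmvk was 21.5 FPKM in anti-CXCL10 plus GSK343 replicate 2, against 17.8 to 18.3 FPKM. Mvd was 6.70 FPKM in control antibody plus GSK343 replicate 1, against 7.85 to 8.15 FPKM, and 7.97 FPKM in anti-CXCL10 replicate 5, against 5.06 to 5.76 FPKM. Insig1 was 12.7 FPKM in control antibody replicate 5, against 9.996 to 10.3 FPKM. Scap was 8.30 FPKM in control antibody plus GSK343 replicate 1, against 10.4 to 11.1 FPKM. Scd1 was 23.2 FPKM in anti-CXCL10 replicate 4, against 29.5 to 31.8 FPKM.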

How the results depend on the processing

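In the main analysis 0 of the 33 genes were called in each of the 5 comparisons. For anti-CXCL10 with GSK343 the number was 1 with the compared groups alone, 1 with the replicate block and 2 without the 3 muscle-high libraries, and 0 to 1 over the fits that left out 1 library each. For GSK343 under control antibody those fits gave 0 to 1, and for the other 3 comparisons 0 in each. The replicate block changed no other call of a member. Over 27 pairs of same-numbered libraries in different groups, r of the deviations from group means ran from -0.199 to 0.318, and 12 were over 0.1. Differently numbered libraries were not compared, so whether the numbers pair the samples was not tested. The number of all genes called for GSK343 under control antibody was 787, and 299 to 1389 with 1 library left out, 233 with the compared groups alone, 529 with a mean of at least 5 FPKM, 466 with the adipocyte score, 6 with the muscle score as a covariate and 15 without the 3 muscle-high libraries. For anti-CXCL10 with GSK343 it was 1456, and 837 to 1829 with 1 library left out, 938 with a mean of at least 5 FPKM, and 119 and 497 under those muscle settings. For the interaction it was 9, and 0 to 476 with 1 library left out, 57 with the replicate block, 5 with a mean of at least 5 FPKM, 0 with the muscle score, 1 with the adipocyte score and 1 without the muscle-high libraries. For anti-CXCL10 without GSK343 it was 0 to 2 in every setting, and for GSK343 under anti-CXCL10 0 to 1. In at least 1 alternative the sign turned for 12 of the 33 genes for GSK343 under control antibody, 10 under anti-CXCL10, 4 for the interaction, 7 for anti-CXCL10 without GSK343 and 13 with it. None of these had an unadjusted p under 0.187 in the main analysis. Those that turned for GSK343 under control antibody included Acat2, Cyp51, Elovl5, Fads2, Mvd, Mvk, Pmvk and Tm7sf2. Of the genes given in detail by rule, 4 turned in that comparison, Lss, Acss2, Scd2 and Acaca. Lss became 0.0045 with median-ratio scaling, 0.034 with the replicate block, 0.013 with the muscle score, 0.095 with the adipocyte score and 0.023 with the FPKM sum, and ran from -0.061 to 0.037 with 1 library left out. Acss2 became 0.048 with the adipocyte score and ran from -0.19 to 0.057, above 0 without GSK343 replicate 1. Scd2 became 0.079 with the adipocyte score and ran from -0.11 to 0.076, above 0 without control replicate 5 and without GSK343 replicate 1. Acaca became -0.11 without the muscle-high libraries. The causes were not tested. With the FPKM sum as a covariate, 14 of 33 genes had an unadjusted p under 0.05 for anti-CXCL10 without GSK343, against 9 without it, and the share of all genes was 8.44% against 6.81%. Fits on the compared groups alone were not run for the interaction, which uses every group. The depth of each library is unknown.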
